A study of Mus musculus with 12 samples.

Results

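The data concern 7 genes for receptors of gut and pancreatic hormones: Calcr, Ramp3, Ghsr, Glp1r, Gipr, Cckar and Cckbr. They were picked by name, as the entries of a count table of 52638 genes whose Ensembl identifiers map to these symbols in GENCODE M21, and all 7 were found. The counts come from the hypothalamus of adult mice in which ribosomes of cells with the long leptin receptor (LepRb) carry a tag, the ribosomal protein L10a fused to green fluorescent protein. Stat3KO mice were LepRb-Cre/Cre, Stat3-flox/flox and R26-GFP:L10a/GFP:L10a. Ctrl mice were LepRb-Cre/Cre and R26-GFP:L10a/GFP:L10a and carried no floxed Stat3, so that both genotypes had the Cre driver and the tag on both chromosomes. Beads that bind the tag separated the RNA on tagged ribosomes (bead-bound RNA) from the rest of the lysate (supernatant RNA). Each genotype had 3 pools of 5 to 8 mice, and each pool gave a bead-bound and a supernatant library, which makes 12 libraries in 4 groups of 3 (Stat3KO bead, Ctrl bead, Stat3KO supernatant and Ctrl supernatant). The labels give neither the sex of the mice nor their age in weeks. The Cre is driven from the leptin receptor gene, and the tag marks its cells as 1 population, so that the kinds of LepRb neuron that hold a receptor are not resolved.

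These receptors carry signals of hunger and satiety to the brain. The calcitonin receptor (Calcr) couples to Gs and cyclic AMP, and with the accessory protein RAMP3 (Ramp3) it becomes a receptor for amylin, a satiety hormone of the pancreatic beta cell. The ghrelin receptor (Ghsr) couples to Gq and to calcium, and stimulates feeding and growth hormone release. The receptors of the incretins GLP-1 (Glp1r) and GIP (Gipr) couple to Gs, and drugs that activate them lower food intake. The cholecystokinin receptors couple to Gq. The receptor of Cckar needs sulphated cholecystokinin, while that of Cckbr also binds gastrin and is the main form in the brain.

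Library totals ranged from 20743217 to 41829907 counts. Levels are given as CPM, which is the count relative to the TMM-scaled total of its library. Lepr stood at 9.78, 11.2 and 13.5 CPM in Stat3KO bead libraries 1 to 3, against 5.84, 12.99 and 13.2 CPM in Ctrl bead libraries. In supernatants it averaged 2.30 ± 0.200 CPM in Stat3KO and 2.06 ± 0.142 CPM in Ctrl (SD, n = 3). The tag stood at 82.3 to 164 CPM on beads and at 7.39 to 15.3 CPM in supernatants, so both markers of LepRb cells were higher on the beads in every pool. The 10 hypothalamic markers examined were each at 1 CPM or more in every group. Stat3, the targeted gene, was counted at 114, 149 and 160 CPM in Stat3KO bead libraries and at 144, 175 and 179 CPM in Ctrl bead libraries (log2 fold change -0.24 ± 0.16 SE, edgeR adjusted p = 0.999). It stood at 54.6, 74.2 and 79.8 CPM in Stat3KO supernatants and at 56.0, 65.2 and 59.6 CPM in Ctrl supernatants. These counts cover the whole gene, deleted part and rest together, so they do not check the label. The first replicate stood apart: mitochondrially encoded genes took 0.166% of the counts in Ctrl bead replicate 1, against 0.0180% to 0.0208% in the other Ctrl bead libraries, and 0.0403% in Stat3KO bead replicate 1, against 0.0210% to 0.0262% in the other Stat3KO bead libraries. Comparisons of the genotypes are therefore also given without the first replicates.

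RefSeq promoter sequences (GRCm38.p6) were matched for 5 of the 7 genes, with 6 windows of 250 bases before a start of transcription, since Calcr has 2. The windows below belong to the 3 genes with the highest bead to supernatant ratios and to Ramp3, the gene that went the other way. Each is written 5′ to 3′ on the strand of the gene (minus for Calcr, plus for the others), without the bases that GENCODE counts as exon, and the Calcr window lies before a RefSeq start that is inside the gene as GENCODE draws it. Capitals mark the GC box GGGCGG and TGACG, the core of the cyclic AMP response element, on either strand.
Calcr, chr6:3763631-3763873: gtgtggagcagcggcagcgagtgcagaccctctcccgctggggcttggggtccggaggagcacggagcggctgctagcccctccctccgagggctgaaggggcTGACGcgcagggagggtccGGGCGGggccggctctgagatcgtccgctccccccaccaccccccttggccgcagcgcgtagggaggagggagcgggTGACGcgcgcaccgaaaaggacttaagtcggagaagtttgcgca
Ramp3, chr11:6658283-6658520: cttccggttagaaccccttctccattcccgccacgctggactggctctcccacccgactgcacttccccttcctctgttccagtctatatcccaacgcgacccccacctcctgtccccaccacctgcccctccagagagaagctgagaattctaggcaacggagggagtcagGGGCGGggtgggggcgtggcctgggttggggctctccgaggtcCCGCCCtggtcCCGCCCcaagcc
Ghsr, chr3:27371101-27371350: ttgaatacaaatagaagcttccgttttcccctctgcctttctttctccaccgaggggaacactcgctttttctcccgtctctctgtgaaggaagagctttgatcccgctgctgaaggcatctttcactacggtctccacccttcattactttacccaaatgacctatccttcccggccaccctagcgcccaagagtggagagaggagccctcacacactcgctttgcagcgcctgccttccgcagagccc
Glp1r, chr17:30901617-30901816: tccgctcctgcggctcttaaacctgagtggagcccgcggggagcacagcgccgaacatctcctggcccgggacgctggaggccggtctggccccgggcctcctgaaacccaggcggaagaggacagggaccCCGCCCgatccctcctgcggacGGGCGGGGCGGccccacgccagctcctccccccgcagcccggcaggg
The STAT motif TTCNNNGAA, searched on both strands, was in 0 of the 6 windows, and 7.02% of all 32851 promoters of this length held it. The STAT motif with a spacer of 4 bases was also in 0 of 6 windows, against 5.85% of all promoters. The GC box was in 3 windows, those of Calcr, Ramp3 and Glp1r shown above, against 32.7% of all promoters, and its last pair in Glp1r overlap by 1 base. TGACG was in both Calcr windows, against 17.8% of all promoters, and the whole element TGACGTCA was in 0 windows, against 1.55%. TATAAA was in 0 windows, against 12.4%. Over their whole length these windows of Glp1r, Calcr and Ramp3 held 73.2%, 70.8% and 65.2% G and C, while Ghsr had 54.0% and the median promoter 52.4%. These matches describe the letters in the windows and no binding was measured.

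Calcr had the highest bead over supernatant log2 fold change of the 7 genes, averaged over genotypes. Its 95% interval (1.95 to 2.58) overlapped that of Ghsr (1.68 to 2.47), and no test compared these genes with each other. Calcr (ENSMUSG00000023964; GRCm38 chromosome 6, 3685680 to 3764714, minus strand) stood at 61.7, 51.4 and 51.6 CPM in Stat3KO bead libraries 1 to 3 and at 13.5, 13.3 and 8.62 CPM in Stat3KO supernatants. It stood at 52.6, 68.0 and 77.6 CPM in Ctrl bead libraries and at 10.2, 13.2 and 16.3 CPM in Ctrl supernatants. Every bead library was above every supernatant. Within pools the bead to supernatant ratio was 3.87 to 5.99 in Stat3KO and 4.76 to 5.14 in Ctrl. Averaged over genotypes, the log2 fold change of bead over supernatant was 2.26 ± 0.15 (SE), with an adjusted p of 7.22e-08 (edgeR quasi-likelihood test over 12 libraries, Benjamini-Hochberg over all genes tested).

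Ramp3 ran the other way. Ramp3 (ENSMUSG00000041046; chromosome 11, 6658521 to 6677475, plus strand) stood at 39.6, 26.5 and 26.5 CPM in Stat3KO bead libraries and at 53.0, 51.9 and 58.2 CPM in Stat3KO supernatants. It stood at 51.4, 34.3 and 33.0 CPM in Ctrl bead libraries and at 57.6, 54.4 and 60.0 CPM in Ctrl supernatants. All bead libraries lay below all supernatants, and in both genotypes replicate 1 was the highest bead library and lay nearest to the supernatants. The averaged log2 fold change was -0.68 ± 0.13 (SE; edgeR adjusted p = 0.000508). Ramp3 shares 101 exon bases with Gm11978, a pseudogene on the other strand that held 86 counts over the 12 libraries. Calcr and Ramp3 thus lay on opposite sides: per kilobase of exon, Calcr stood at 0.640 ± 0.0776 of Ramp3 in Stat3KO bead RNA and at 0.0774 ± 0.0218 of it in Stat3KO supernatant (SD, n = 3). In Ctrl the ratio was 0.630 ± 0.242 on beads and 0.0815 ± 0.0170 in supernatant.

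Ghsr followed Calcr. Ghsr (ENSMUSG00000051136; chromosome 3, 27371351 to 27378010, plus strand) stood at 14.8, 14.6 and 13.02 CPM in Stat3KO bead libraries and at 2.70, 3.42 and 3.28 CPM in Stat3KO supernatants. It stood at 6.88, 11.7 and 15.3 CPM in Ctrl bead libraries and at 2.13, 3.68 and 2.79 CPM in Ctrl supernatants. The Stat3KO bead libraries lay close together, while Ctrl bead replicate 1 was low, in the library where Lepr was also at its lowest on beads. The averaged log2 fold change of bead over supernatant was 2.07 ± 0.18 (SE; edgeR adjusted p = 1.05e-06). Set against Lepr in the same library and per kilobase, Ghsr stood at 1.54 to 2.40 times Lepr in Stat3KO bead RNA and at 1.44 to 1.87 times Lepr in Ctrl bead RNA. In Ctrl this ratio spread less than the CPM of Ghsr, and in Stat3KO it spread more.

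Of the incretin receptors, Glp1r passed as higher on beads and Gipr did not pass, and no test compared the 2. Glp1r (ENSMUSG00000024027; chromosome 17, 30901817 to 30940791, plus strand) stood at 2.33, 2.31 and 2.23 CPM in Stat3KO bead libraries and at 0.656, 1.32 and 1.19 CPM in Stat3KO supernatants. It stood at 2.38, 3.72 and 4.90 CPM in Ctrl bead libraries and at 0.797, 1.39 and 0.884 CPM in Ctrl supernatants. Bead and supernatant libraries did not overlap, with an averaged log2 fold change of 1.48 ± 0.23 (SE; edgeR adjusted p = 0.000109). These levels rest on 57 to 182 counts in a bead library and 18 to 57 in a supernatant. Gipr (ENSMUSG00000030406; chromosome 7, 19156061 to 19166127, minus strand) stood at 2.30, 3.15 and 1.72 CPM in Stat3KO bead libraries and at 2.07, 1.83 and 1.34 CPM in Stat3KO supernatants. It stood at 1.38, 2.05 and 1.13 CPM in Ctrl bead libraries and at 1.86, 1.11 and 1.29 CPM in Ctrl supernatants, on 33 to 120 counts in any library. The 4 groups overlapped, and the averaged log2 fold change of 0.28 (95% interval -0.20 to 0.76) did not pass (edgeR adjusted p = 0.2998).

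Both cholecystokinin receptors were higher on beads by smaller steps. Cckar (ENSMUSG00000029193; chromosome 5, 53697776 to 53707705, minus strand) stood at 7.20, 5.93 and 6.87 CPM in Stat3KO bead libraries and at 3.61, 4.02 and 4.63 CPM in Stat3KO supernatants. It stood at 7.38, 8.75 and 9.02 CPM in Ctrl bead libraries and at 4.38, 4.91 and 6.74 CPM in Ctrl supernatants. Within each genotype all bead libraries were above all supernatants, with an averaged log2 fold change of 0.68 ± 0.13 (SE; edgeR adjusted p = 0.000679). Cckbr (ENSMUSG00000030898; chromosome 7, 105425731 to 105470898, plus strand) stood at 5.38, 6.75 and 4.78 CPM in Stat3KO bead libraries and at 5.20, 5.11 and 5.26 CPM in Stat3KO supernatants. It stood at 7.92, 8.40 and 10.4 CPM in Ctrl bead libraries and at 6.38, 5.24 and 6.02 CPM in Ctrl supernatants. The fractions overlapped in Stat3KO and were apart in Ctrl. The averaged log2 fold change of 0.36 ± 0.12 (SE; edgeR adjusted p = 0.0217) lost its call without Ctrl bead replicate 3 (0.30, adjusted p = 0.0578), without Ctrl supernatant replicate 2 (0.33, adjusted p = 0.0611) and when scaled by library totals (0.23, adjusted p = 0.136).

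**Figure D1:**
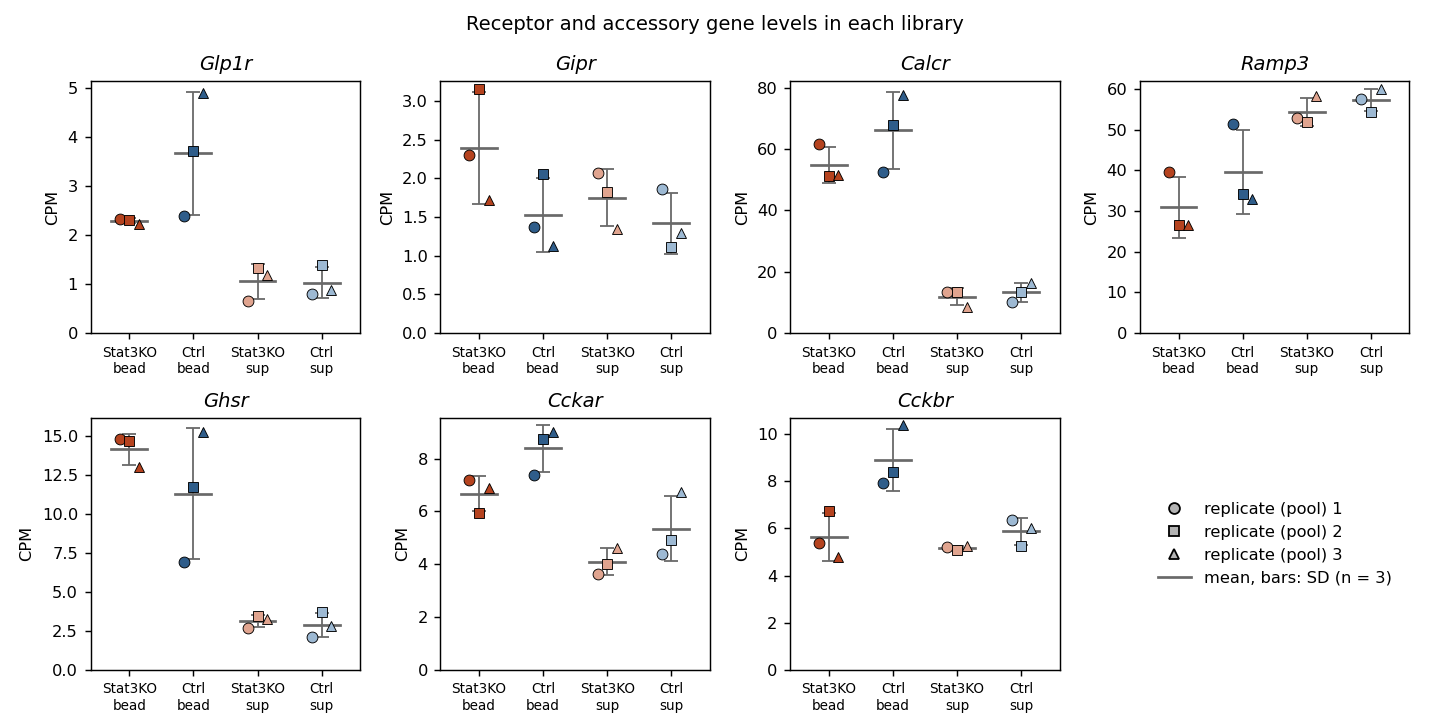
Level of each of the 7 genes in every library, in CPM on linear axes that start at 0, with the groups Stat3KO bead, Ctrl bead, Stat3KO supernatant and Ctrl supernatant from left to right; symbols are pools, bars are the mean and SD (n = 3). Calcr and Ghsr stand far higher on beads than in supernatants, Ramp3 stands lower, and the Gipr groups overlap.

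In all, 5 of the 7 genes passed the test as higher on beads and 1 as lower. The background was 54.9% of 19122 genes tested that passed in either direction. Of all genes tested, 26.2% passed as higher and 28.7% as lower. The median log2 fold change was 0.68 over the 7 genes and -0.03 over all genes tested. With library totals in place of TMM, the median over all genes moved by -0.129, all genes split into 3630 higher and 6722 lower rather than 5012 and 5488, and 4 of the 7 passed as higher and 1 as lower. Bead and supernatant libraries did not overlap for 5 of the 7 genes in Stat3KO, where 48.9% of genes tested did not, and for 6 of the 7 in Ctrl, where 54.2% did not. In bulk samples, fewer cells of a type and less RNA per cell cannot be told apart. RNA of other cells was not absent from the beads. The summed level of 8 oligodendrocyte markers was 1672 to 3004 CPM on beads and 4505 to 6859 CPM in supernatants. The sum of 8 endothelial markers was higher on beads, except in Stat3KO bead replicate 1. That library stood at 16.2 CPM, below every supernatant (18.8 to 26.4 CPM). All other bead libraries, at 57.9 to 153 CPM, were above every supernatant. The cause of the higher endothelial sums was not tested. The part of oligodendrocyte or endothelial RNA in the bead levels of these receptors was not tested either.

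Within Stat3KO alone, 4 genes passed as higher on beads (Ghsr 2.16, Calcr 2.20, Glp1r 1.11, Cckar 0.70) and Ramp3 as lower (-0.83), against 32.1% of 18107 genes tested in either direction, 14.7% higher and 17.3% lower. With the pool as a block that background was 49.7%, and the calls of the 7 genes were the same. Cckbr stood at 0.11 in Stat3KO (95% interval -0.31 to 0.53, edgeR adjusted p = 0.679) and Gipr at 0.43 (adjusted p = 0.285). In Stat3KO, Glp1r lost its call without bead replicate 3 (1.14, adjusted p = 0.0514) or supernatant replicate 3 (1.20, adjusted p = 0.0534), and Cckar without bead replicate 3 (0.69, adjusted p = 0.0548), supernatant replicate 1 (0.62, adjusted p = 0.0505) or supernatant replicate 2 (0.70, adjusted p = 0.0712). Within Ctrl alone, 5 passed as higher (Calcr 2.31, Ghsr 1.96, Glp1r 1.83, Cckar 0.65, Cckbr 0.61) and Ramp3 as lower (-0.53, adjusted p = 0.0428), against 41.9% of 18036 genes tested, 20.7% higher and 21.2% lower. In Ctrl, Ramp3 lost its call without bead replicate 2 or 3 or any 1 supernatant library (-0.58 to -0.40, adjusted p 0.0698 to 0.151). Cckar lost its call without bead replicate 2 or 3 or supernatant replicate 1 or 2 (0.52 to 0.62, adjusted p 0.0640 to 0.111) and with library totals (0.50, adjusted p = 0.0611). Cckbr lost its call without supernatant replicate 2 (0.52, adjusted p = 0.0881) and with library totals (0.46, adjusted p = 0.0595). The share of higher among all genes called in Stat3KO was 46.0% with TMM and 33.1% with library totals, and in Ctrl 49.4% with TMM and 32.7% with library totals.

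**Figure D2:**
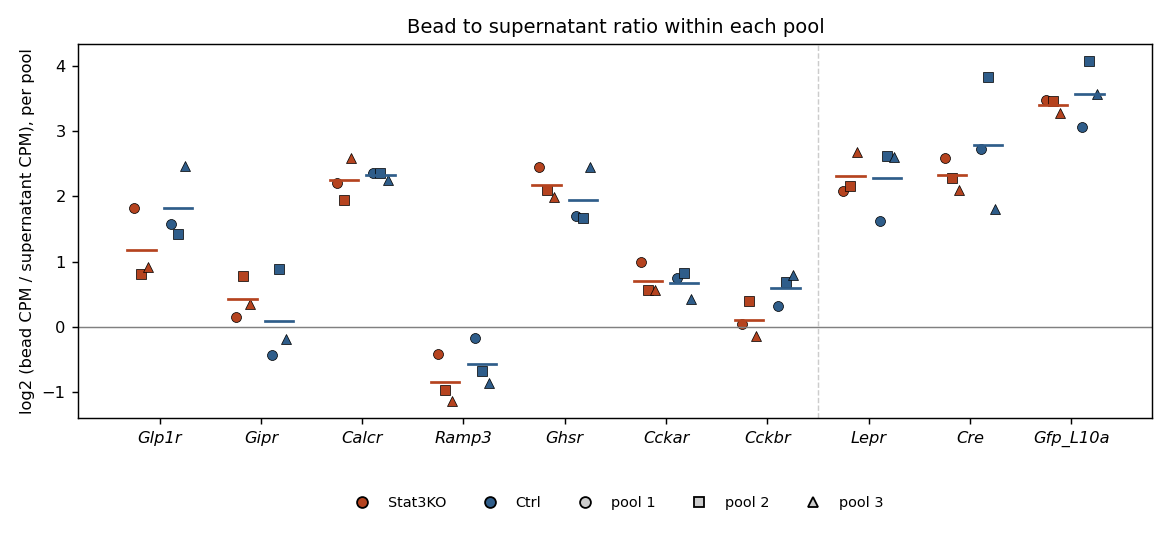
Ratio of bead to supernatant CPM within each pool on a log2 scale, for the 7 genes and, right of the dashed line, Lepr, Cre and the GFP:L10a tag; Stat3KO is left of Ctrl, symbols are pools and bars are means of 3. All 6 pools lie above 0 for Calcr, Ghsr, Glp1r and Cckar, and all 6 lie below 0 for Ramp3.

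The order of the genes by level, per kilobase of exon, put Ramp3 first and Calcr after it in every group. In Stat3KO bead RNA Ramp3 stood at 22.4 ± 5.45 and Calcr at 14.04 ± 1.51 CPM per kilobase (SD, n = 3), and in Ctrl bead RNA at 28.7 ± 7.44 and 16.9 ± 3.23. Next in Stat3KO bead RNA came Ghsr at 3.19 ± 0.222, Cckbr at 1.97 ± 0.353 and Cckar at 1.81 ± 0.179 CPM per kilobase, and the last pair overlapped. Gipr at 0.686 ± 0.207 and Glp1r at 0.394 ± 0.00880 CPM per kilobase were the lowest and did not overlap. In Ctrl bead RNA Cckbr at 3.11 ± 0.462, Ghsr at 2.55 ± 0.949 and Cckar at 2.28 ± 0.238 CPM per kilobase overlapped as neighbours. Glp1r at 0.631 ± 0.217 stood before Gipr at 0.436 ± 0.137 CPM per kilobase there, with overlapping ranges. In both supernatants the order ran Ramp3, Calcr, Cckbr, Cckar, Ghsr, Gipr and Glp1r, and Ghsr and Gipr overlapped in Ctrl supernatant. Ghsr thus stood ahead of Cckar on beads and after it in supernatants.

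The comparison of Stat3KO with Ctrl bead RNA asks whether loss of Stat3 in LepRb cells goes with other levels of these genes on their ribosomes. None of the 7 genes passed it in edgeR, DESeq2 or limma-voom. The background was 78 of 17354 genes tested, or 0.449%, with 73 higher (0.421%) and 5 lower (0.0288%). Before adjustment, 2 of the 7 genes were under 0.05 in each of these tools, and in edgeR these were Cckbr and Glp1r. Of all 17354 genes tested, 713 were under 0.05 before adjustment in edgeR. Cckbr stood at -0.66 ± 0.21 (log2, SE; edgeR adjusted p = 0.799) and Glp1r at -0.69 ± 0.29 (adjusted p = 0.999), both lower in Stat3KO. The libraries of the genotypes did not overlap for Glp1r, Cckar and Cckbr, all 3 lower in Stat3KO, and 9.37% of all genes tested had no overlap in either direction. In Glp1r the gap was small, since the highest Stat3KO bead library was at 2.33 CPM and the lowest Ctrl bead library at 2.38 CPM. The other Ctrl bead libraries stood at 3.72 and 4.90 CPM. With all 6 libraries, summed markers of other cell types overlapped between the genotypes on beads, with 336 to 430 CPM in Stat3KO and 392 to 555 CPM in Ctrl for astrocytes, and 16.2 to 153 CPM in Stat3KO and 57.9 to 140 CPM in Ctrl for endothelium. The 7 pituitary markers were the exception, at 126 to 173 CPM in Stat3KO and 490 to 602 CPM in Ctrl. Without Pomc, which arcuate neurons also express and which was left out after its values were seen, the other 6 overlapped (23.8 to 30.2 CPM in Stat3KO and 20.7 to 31.2 CPM in Ctrl). The sum of 4 arcuate feeding genes overlapped on beads (1592 to 3381 against 1609 to 1712 CPM), but each of them was apart. Agrp (mean 463 against 130 CPM) and Npy (1541 against 487 CPM) were higher in Stat3KO. Pomc (127 against 521 CPM) and Cartpt (175 against 517 CPM) were lower. The part of these shifts in the receptor levels was not tested.

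Of the other genes, Cckar stood at -0.33 (95% interval -0.75 to 0.08), Ramp3 at -0.36 (-0.85 to 0.14) and Calcr at -0.27 (-0.65 to 0.11) on the log2 scale. Gipr stood at 0.65 (-0.11 to 1.42) and Ghsr at 0.32 (-0.25 to 0.89). The adjusted p of these 5 genes was 0.999 in edgeR. The intervals leave room for changes of either direction in these 5. The median over the 7 genes was -0.33, with 2 of 7 above 0, and over all genes tested -0.01.

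**Figure D3:**
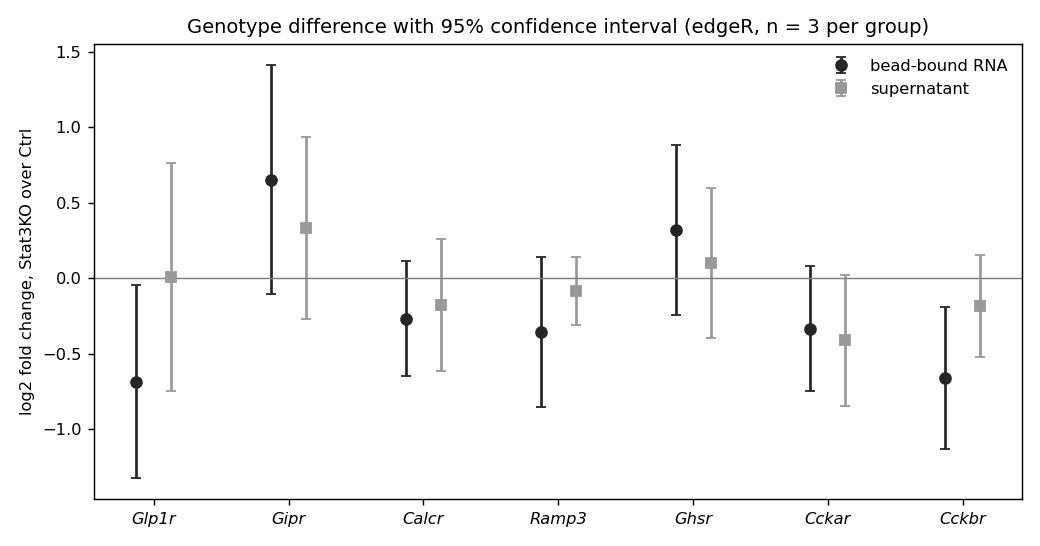
Log2 fold change of Stat3KO over Ctrl for each gene, in bead-bound RNA (black circles) and in supernatant (grey squares), with the 95% confidence interval from edgeR (n = 3 per group). In bead RNA the intervals of Glp1r and Cckbr lie below 0 before adjustment over all genes, and every supernatant interval includes 0.

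Without the first replicate of either group, which leaves 2 libraries against 2, 3 genes passed as lower in Stat3KO bead RNA. They were Calcr at -0.52 ± 0.11 (log2, SE; edgeR adjusted p = 0.00343), Cckbr at -0.73 ± 0.21 (adjusted p = 0.0340) and Glp1r at -0.95 ± 0.28 (adjusted p = 0.0359). The background was higher too: 1167 of 17543 genes passed, or 6.65%, and 5.10% passed as lower. Ghsr then stood at 0.01 (adjusted p = 0.991), against 0.32 with all libraries. Ramp3 stood at -0.37 (adjusted p = 0.0891), Cckar at -0.50 (adjusted p = 0.165) and Gipr at 0.60 (adjusted p = 0.508). In these 4 libraries 9 markers of striatum and cortex summed to 158 and 186 CPM in Stat3KO and to 306 and 259 CPM in Ctrl, and in the matching supernatants to 152 and 238 CPM in Stat3KO and to 569 and 425 CPM in Ctrl. On beads, 9 neuronal markers summed to 8490 and 9049 CPM in Stat3KO and to 9507 and 9369 CPM in Ctrl, and the 10 hypothalamic markers to 392 and 386 CPM in Stat3KO and to 365 and 371 CPM in Ctrl. The part of these shifts in the calls without the first replicates was not tested. When 1 library was left out at a time, none of the 7 genes passed, and each of them kept its direction.

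**Figure D4:**
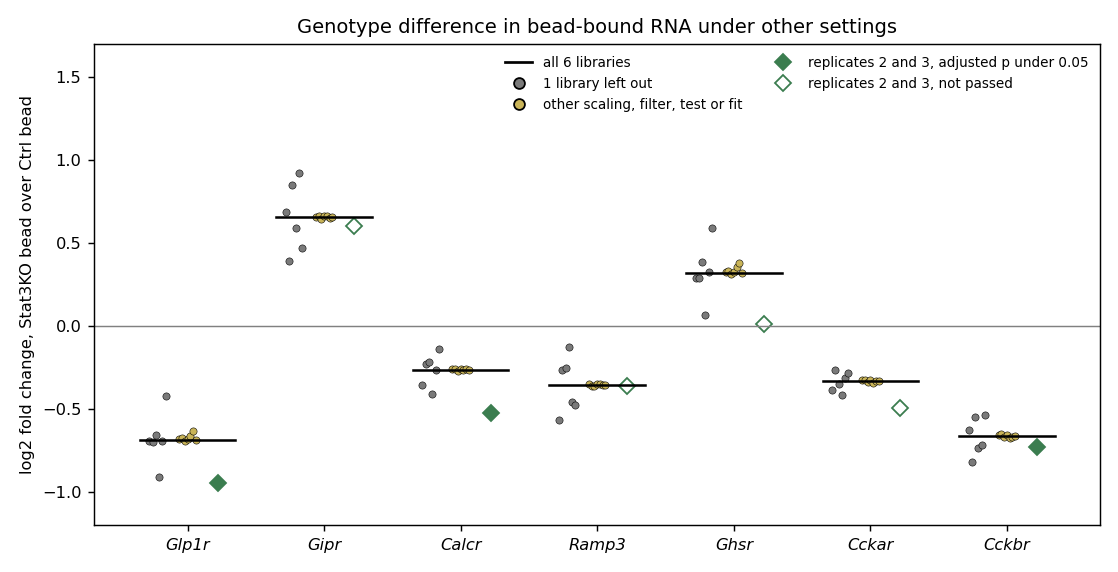
Log2 fold change of Stat3KO over Ctrl in bead-bound RNA under each setting tried: bars, all 6 libraries; grey points, 1 library left out; yellow points, another scaling, filter, test or fit; diamonds, replicates 2 and 3 alone, filled where the adjusted p was under 0.05. The filled diamonds are Glp1r at -0.95, Calcr at -0.52 and Cckbr at -0.73, and the open diamond of Ghsr stands at 0.01, against its bar at 0.32.

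In supernatant none of the 7 genes passed in edgeR, DESeq2 or limma-voom, against a background of 2 of 18547 genes tested, or 0.0108%. Before adjustment 0 of the 7 were under 0.05 in any of these tools, against 1149 of the 18547 genes in edgeR. The largest difference was that of Cckar, at -0.41 ± 0.20 (log2, SE; edgeR adjusted p = 0.819). Calcr stood at -0.18 ± 0.20, Ramp3 at -0.09 ± 0.10, Cckbr at -0.18 ± 0.16, Glp1r at 0.01 ± 0.35, Ghsr at 0.10 ± 0.23 and Gipr at 0.33 ± 0.28. With replicates 2 and 3 alone, 0 of the 7 passed, against 5.29% of genes tested. The genotypes overlapped in all 7 genes, where 12.7% of all genes tested had no overlap. Summed glial markers did differ in these supernatants without overlap: 726 to 921 CPM in Stat3KO against 966 to 1153 CPM in Ctrl for 8 astrocyte markers, 4505 to 5095 against 5447 to 6859 CPM for 8 oligodendrocyte markers, and 61.2 to 80.7 against 84.5 to 101 CPM for 7 microglial markers. Of the astrocyte markers, Aldh1l1 went against its list, with a mean of 33.1 CPM in Stat3KO against 30.3 CPM in Ctrl. The sum of the 10 hypothalamic markers was apart in the other direction by a narrow gap, at 318 to 432 CPM in Stat3KO against 259 to 317 CPM in Ctrl. Much of it was Avp, at 182, 164 and 115 CPM in Stat3KO against 91.2, 66.8 and 85.9 CPM in Ctrl. Hcrt and Crh had lower means in Stat3KO. The part of these shifts in the supernatant levels was not tested.

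The test of the difference itself took the bead to supernatant ratio in Stat3KO minus that in Ctrl. It also called none of the 7, against 39 of 19122 genes tested, or 0.204%. Before adjustment 0 of the 7 were under 0.05 in edgeR, DESeq2 or limma-voom, against 405 of the 19122 genes in edgeR. Glp1r had the lowest value, at -0.71 (95% interval -1.69 to 0.27), followed by Cckbr at -0.48 (-1.01 to 0.04). Cckbr thus passed the bead to supernatant test in Ctrl and not in Stat3KO, while the difference between genotypes did not pass (edgeR adjusted p = 1.00). This comparison shares its libraries with the genotype comparisons in bead RNA and in supernatant.

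The levels of the ligand genes ranged widely in the tissue block. Of 16 ligand and processing genes, 6 reached a mean of 1 CPM in any group. Cck, whose product activates the receptors of both Cckar and Cckbr, stood at 74.2, 43.6 and 39.0 CPM in Stat3KO bead libraries, against 87.9, 54.4 and 54.0 CPM in Ctrl bead libraries, and at 58.1 to 72.7 CPM in supernatants. The fractions did not differ past the threshold for Cck (log2 -0.16, edgeR adjusted p = 0.405). Gast, the gastrin gene, passed as higher on beads (1.83 ± 0.33, adjusted p = 0.000378) at 0.604 to 1.72 CPM there and 0.133 to 0.505 CPM in supernatants. Calca, which encodes calcitonin and CGRP, passed as higher on beads (1.09 ± 0.15, adjusted p = 4.05e-05), at 6.21 to 10.7 CPM in Stat3KO and 8.29 to 9.04 CPM in Ctrl bead RNA. Passing as lower on beads were Adm for adrenomedullin (-1.14 ± 0.28, adjusted p = 0.00318), Dpp4 for the protease that inactivates GLP-1 and GIP (-1.15 ± 0.17, adjusted p = 7.00e-05) and Ghrl for ghrelin (-1.54 ± 0.35, adjusted p = 0.00194). Ghrl reached at most 1.74 CPM, and shares 169 of its 1079 exon bases with Gm44033 on the other strand. Reads from that stretch cannot be told apart between the genes. The genes for GLP-1 and glucagon (Gcg), GIP (Gip) and amylin (Iapp) held 10, 3 and 6 counts in the 12 libraries together.

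Related receptors and accessory proteins split in both directions. Of 16 genes, 12 were tested between fractions, and 4 passed as higher and 6 as lower on beads. The background was 26.2% higher and 28.7% lower of all 19122 genes tested. Npy2r, a receptor of NPY and of the gut hormone PYY, stood at 51.6, 42.1 and 42.8 CPM in Stat3KO bead libraries, against 47.3, 71.0 and 95.3 CPM in Ctrl bead libraries, and at 12.3 to 22.8 CPM in supernatants. Its bead over supernatant log2 fold change was 1.76 ± 0.16 (SE; edgeR adjusted p = 1.50e-06). Mrap2, whose product acts on the ghrelin receptor and on melanocortin receptors, was higher by 0.96 ± 0.13 (adjusted p = 4.55e-05). The VIP receptors Vipr2 (-1.57 ± 0.14, adjusted p = 1.19e-06) and Vipr1 (-1.03 ± 0.25, adjusted p = 0.00301) were lower. Among genes related to Ramp3 and Calcr, named after their values were seen, Ramp1 was lower on beads (-1.01 ± 0.26, adjusted p = 0.00477) and so was Calcrl, the receptor of CGRP and adrenomedullin (-0.54 ± 0.20, adjusted p = 0.0304). Ramp2 was higher (0.72 ± 0.13, adjusted p = 0.000364), but shares 1103 of its 3301 exon bases with Vps25 and is uncertain.

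Downstream genes passed in both directions. Of 30 G protein and second messenger genes, 10 passed as higher and 9 as lower on beads. Of all 19122 genes tested, 26.2% passed as higher and 28.7% as lower. Gna14, a Gq family subunit, was higher by 1.95 ± 0.22 (log2, SE; edgeR adjusted p = 7.46e-06), and Gnas, which encodes the Gs subunit that activates adenylyl cyclase, by 1.04 ± 0.07 (adjusted p = 1.50e-07). The adenylyl cyclase gene Adcy1 (-1.245 ± 0.11, adjusted p = 8.59e-07) and the phospholipase gene Plcb3 (-0.97 ± 0.19, adjusted p = 0.000622) were lower. Of 14 desensitisation genes, 4 passed as higher and 7 as lower, against the same background. Rgs2, a brake on Gq, was higher by 1.27 ± 0.07 (adjusted p = 1.94e-08) and the beta-arrestin gene Arrb2 by 0.57 ± 0.09 (adjusted p = 0.000167). The phosphodiesterase genes Pde10a (-0.85 ± 0.12, adjusted p = 4.54e-05) and Pde3b (-0.80 ± 0.11, adjusted p = 5.23e-05) were lower.

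**Figure D5:**
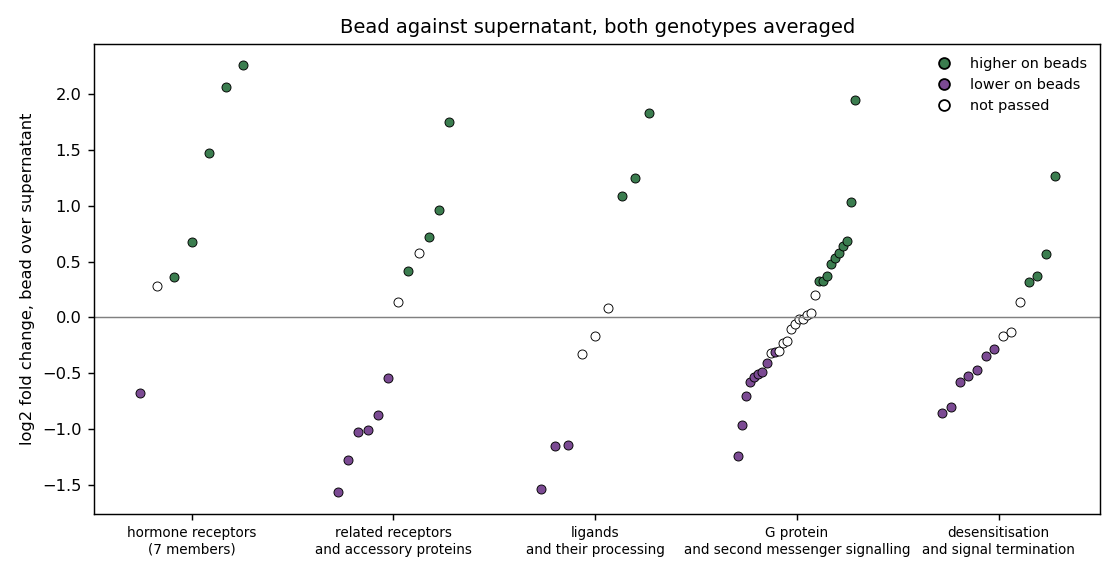
Bead over supernatant log2 fold change, averaged over genotypes, of the 7 genes and of every tested gene in 4 lists; green points passed as higher, purple as lower and open points did not pass (edgeR adjusted p under 0.05). The ligand list holds 3 higher and 3 lower of 9 tested, and the other lists also run in both directions. Of all 19122 genes tested, 26.2% passed as higher and 28.7% as lower.

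Between genotypes, 0 of these 76 genes passed in either fraction or in the difference of the ratios in edgeR, DESeq2 or limma-voom. In edgeR 5 of 63 tested had an unadjusted p under 0.05 in bead RNA, 5 of 63 in supernatant and 1 of 65 for the difference. Over all genes tested, 713 of 17354, 1149 of 18547 and 405 of 19122 were under 0.05, in the same order. With no filter on low counts, Npy2r passed as lower in Stat3KO bead RNA (-0.65, adjusted p = 0.0397) and Pde10a as lower in Stat3KO supernatant (-0.49, adjusted p = 0.0136). With replicates 2 and 3 alone, Npy2r (-0.99, adjusted p = 4.96e-06), Mrap2 (-0.50), Cck (-0.42), Plcb1 (-0.35) and Adcy5 (-0.35) passed as lower in Stat3KO bead RNA. Over all genes tested 6.65% passed there, and 5.10% passed as lower. In supernatant 9 of 63 tested passed in that setting, against 5.29% of all genes tested. Of these 9, 8 were lower in Stat3KO, where 4.22% of all genes tested passed as lower. Npy2r (-0.57), Plcb1 (-0.52) and Adcy5 (-0.52) were among the 8.

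The genes with the most similar pattern were taken as those with the smallest root mean square difference of centred log2 CPM over the 12 libraries, among 13396 genes. Calcr was nearest to Slc10a4 (0.12) and Gpc4 (0.14), where the median gene differed by 1.16 log2 units. Ghsr was nearest to Arhgap36 (0.21) and to Lepr itself (0.26), against a median of 1.07. Glp1r was nearest to Stat3 (0.30) and Aldh1a1 (0.31), against 0.83. Ramp3 was nearest to Mgll (0.13) and Stac2 (0.13), against 0.52, and Gipr to Prss50 (0.23) and Ptgis (0.25), against 0.50. Cckar was nearest to Shh (0.16) and Pnma2 (0.16), against 0.46, and Cckbr to Fgfr1 (0.14) and Tmem42 (0.15), against 0.41. The libraries behind these values share pools and the large difference between fractions, and the nearness is a description with no test.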

How the data were processed

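Per the labels' protocols, a block of the ventral diencephalon behind the optic chiasm was pooled from 5 to 8 mice per replicate, and libraries were made with the TruSeq mRNA v2 kit, which is not stated to keep the strand. The deposited values are whole-number counts per gene, not normalised by the authors. STAR 2.5.3a and the build mm10 are named in the submitters' processing notes. How reads were counted is not given in the sources used here. Identifiers were matched to GENCODE M21 on GRCm38 (52403 of 52638 matched, 233 unmatched, 2 transgene entries). All columns were mapped through the numbers in the sample descriptions.

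Counts were tested over the whole table with edgeR 4.0.16 in R 4.3.3, using filterByExpr (count of at least 10, total of at least 15), TMM factors, quasi-likelihood models without a block, and 2-sided p-values adjusted by Benjamini-Hochberg with a threshold of 0.05. All 7 receptor genes passed the filter in each of the 6 comparisons. Reads carry no molecular identifiers, so depth covers counting error only. The edgeR fit of Stat3KO against Ctrl bead RNA was tested on simulated independent libraries, which do not cover pools shared between fractions.

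Alternatives were DESeq2 1.42.0, limma-voom (limma 3.58.1), DESeq2 size factors or library totals as the scaling, no filter, 1 fit over 12 libraries, each library left out in turn, replicates 2 and 3 alone, and the replicate as a block. Bead and supernatant libraries of 1 number came from 1 pool: the correlation of their deviations from the group means was 0.196 to 0.367 in the 6 pools, so the numbers pair the fractions. Between genotypes it was -0.0851 to 0.141, and whether equal numbers share a batch was not tested.

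The receptor genes, gene lists and marker lists were chosen with earlier results of these data known. Beside the receptors and the checks Stat3, Lepr and the transgenes, the genes named are those of 4 pathway lists that passed a genotype comparison, the 2 highest and 2 lowest per list (mean of at least 1 CPM) among those that passed between fractions, and ligand genes at 1 CPM or more in any group. The 2 nearest genes per receptor used log2 CPM with a prior count of 2.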

Additional observations from a re-analysis of the deposited data

How the results depend on the processing

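The 5 higher and 1 lower calls between fractions, averaged over genotypes, held under every other scaling, filter, test and fit tried, except with library totals, where Cckbr was lost (0.23), and without either of 2 Ctrl libraries, where it was lost too (0.30 and 0.33). Called genes in Stat3KO against Ctrl bead RNA numbered 78, against 183 with no filter, 124 with DESeq2 and 1167 with replicates 2 and 3 alone, where 3 of the receptors and 5 pathway genes were called rather than 0; with no filter 1 pathway gene was. In supernatant the count of 2 became 203 with no filter, 43 with DESeq2 and 988 with replicates 2 and 3 alone, and pathway genes called became 1 with no filter and 9 with replicates 2 and 3 alone. For the difference of ratios the count of 39 became 97 with no filter and 63 with DESeq2. With the replicate block, calls numbered 73 in bead RNA, 4 in supernatant, 59 for the difference of ratios and 8999 in Stat3KO between fractions, where 44 pathway genes passed; the block changed no call of a receptor. Leaving out 1 library at a time gave 2 to 43 called genes in supernatant, 24 to 35 for the difference of ratios, 4866 to 8813 in Ctrl between fractions (3 to 6 receptors) and 2879 to 6410 in Stat3KO between fractions (3 to 5 receptors, 17 to 32 pathway genes). Values near 0 changed sign. In supernatant, Glp1r was -0.0047 with library totals, -0.033 with limma-voom and -0.21 to 0.30 with 1 library left out, Ghsr was -0.063 to 0.33 and Calcr -0.34 to 0.00058. In Ctrl between fractions, Gipr was -0.033 with library totals and -0.15 to 0.33 with 1 library left out. Cckbr in Stat3KO between fractions was -0.032 to 0.23. For the difference of ratios, Ghsr was -0.043 to 0.49, Cckar -0.14 to 0.18 and Calcr -0.28 to 0.052, and with replicates 2 and 3 alone Ghsr was -0.023 and Cckar -0.037. The cause of these changes was not tested. Arms of 2 libraries were taken to vary like the others in the fit. Glp1r and Gipr, at 18 to 182 counts per library, limit what the depth can show.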
